A study of Homo sapiens with 16 samples.

Results

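The 34 genes described here belong to cholesterol and fatty acid synthesis and to its control. They were chosen by name, with earlier results of these data known. They are 18 enzymes of sterol synthesis, 5 regulators of the sterol response, and 7 enzymes of fatty acid synthesis and desaturation. The other 4 are genes of sterol transport or of the LXR response. All 34 had a probe that passed the filter on signal, among 16394 genes that did. They were measured on 16 single-colour microarrays of LP-1, a human multiple myeloma cell line, meaning a tumour of antibody-secreting plasma cells. LP-1-cIAP2-eGFP cells carry a lentiviral vector for cIAP2, an inhibitor of apoptosis protein, together with the fluorescent protein eGFP, and control cells (LP-1-eGFP) carry the vector with eGFP alone. Transduced cells were sorted, and each line is taken here as 1 transduced pool. Each line was studied with and without 10 nM bortezomib, an inhibitor of the proteasome, and RNA was taken after 6 h and after 24 h. Each of these 8 conditions had 2 biological replicates, and this number of arrays limits the precision.

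Cells make cholesterol from acetyl-CoA through mevalonate, squalene and lanosterol, and the fatty acids of their membranes from acetyl-CoA through malonyl-CoA. Both routes are driven by the sterol regulatory element binding proteins (SREBPs), transcription factors that are made as precursors in the membrane of the endoplasmic reticulum. When membrane sterol is low, the escort protein SCAP carries the precursor to the Golgi, where proteases free the active factor, and when sterol is high the INSIG proteins hold SCAP back. INSIG1 and the active SREBPs are themselves short-lived proteins that are degraded by the proteasome. Plasma cells secrete large amounts of protein and have an extended endoplasmic reticulum, which is built from these lipids.

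The array's probe for BIRC3, the gene of cIAP2, reads the endogenous transcript alone, as given in the study's methods, and so does not check the labels of the lines. It ranged from 13.54 to 14.04 with a median of 13.75 on the 8 control arrays and from 11.92 to 13.67 with a median of 12.32 on the 8 LP-1-cIAP2-eGFP arrays. All values of this kind are log2 units of the quantile normalized intensity of the brightest probe of a gene, and 1 unit is a doubling. The endogenous transcript was lower in LP-1-cIAP2-eGFP cells by limma's test (adjusted p = 7.42e-06). The plasma cell markers SDC1, TNFRSF17, PRDM1, XBP1, CD38, POU2AF1 and MZB1 were well above background on all 16 arrays, whereas the B cell markers MS4A1 and PAX5, the myeloid marker CSF1R and the stromal marker COL3A1 were above it on 0 arrays. Other markers outside plasma cells were detected on some arrays, namely CD3E on 10, CD3D on 12, CD14 on 13 and COL1A1 on 10. The lines themselves differed in SDC1, by 1.42 (adjusted p = 5.1e-06), in CD38, by -0.55 (adjusted p = 0.00279), in MZB1, by 0.50 (adjusted p = 0.0075), in POU2AF1, by 0.34 (adjusted p = 0.0166), and in CD3D, by -1.14 (adjusted p = 0.046). The part of these markers in the results below was not tested.

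One array stood apart from the others. On the first replicate of LP-1-cIAP2-eGFP cells with bortezomib for 24 h, 35.5% of gene spots were well above background, against 49.0% to 71.1% on the other 15 arrays. Across probes, the SD of the difference between its condition's replicates was 1.48, against 0.50 to 0.77 in the other conditions. It is called the dim array below, and values that moved by over 1.5 times without it are given both ways. In addition, the arrays lay on 2 slides, and 6 of the 8 LP-1-cIAP2-eGFP arrays but 2 of the 8 control arrays lay on slide 1.

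Sequence upstream of the genes is shown first, because SREBPs act at short elements near the start of their target genes, usually together with the factor that binds CCAAT boxes. RefSeq windows on GRCh38.p14 were found for 30 of the 34 genes, while FDFT1, SQLE, FASN and ACAT2 had no entry. In the 250 bases before the start, the letters TCACNCNAC, a pattern for the sterol regulatory element, were searched on either strand. They were found in 4 of the 30 genes (FDPS, HSD17B7, SREBF2 and FADS2), and in 2.48% of all 27305 genes with a window. Other forms of the element and bases further upstream were not searched, so that a gene without a match is not shown to lack it. The CCAAT box was present in 20 of the 30 genes and in 37% of all genes, and the GC box GGGCGG in 29 of the 30 and in 46.2% of all. A match is a description of letters and not a binding site, and matches to the sterol element and to CCAAT share no bases in the stretches printed here. Stretches of 5 genes are given from 5′ to 3′, all of them upstream of the transcript, with matches to TCACNCNAC and to CCAAT on either strand in capitals. The first 4 hold the sterol element, and STARD4 is added because it was the gene called at 6 h.
SREBF2, chr22:41832960-41833015, plus strand: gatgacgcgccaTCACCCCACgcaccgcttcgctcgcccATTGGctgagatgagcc
FDPS, chr1:155308678-155308831, plus strand: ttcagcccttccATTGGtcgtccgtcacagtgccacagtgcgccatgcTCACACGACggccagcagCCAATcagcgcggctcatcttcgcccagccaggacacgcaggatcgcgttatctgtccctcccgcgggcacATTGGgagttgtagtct
HSD17B7, chr1:162790592-162790666, plus strand: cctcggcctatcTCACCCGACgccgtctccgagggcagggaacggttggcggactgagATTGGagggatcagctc
FADS2, chr11:61815971-61816003, plus strand: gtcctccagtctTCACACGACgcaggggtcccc
STARD4, chr5:111512649-111512708, minus strand: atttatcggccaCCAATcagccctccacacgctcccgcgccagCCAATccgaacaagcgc
The element begins 133 bases before the start of SREBF2, 140 before that of FDPS, 98 before that of HSD17B7 and 220 before that of FADS2, in 1 of the windows of this gene. STARD4 has CCAAT boxes that begin 161 and 130 bases before its start.

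At 6 h, the question was whether the genes had already responded to bortezomib. In control cells, STARD4, a cytosolic carrier of sterols, was the 1 gene of the 34 that was called (adjusted p under 0.05 by limma, over all tested probes), and it rose. No gene was called lower. Over all tested genes, 1.91% were called higher and 0.958% lower in this comparison. With array weights more of the 34 genes were called in control cells, in both directions, as counted in the section on processing. No share over all genes is given for the fit with weights, so that those calls are not read as a result. In LP-1-cIAP2-eGFP cells 0 of the 34 genes were called by limma, where 1.11% of all genes were called higher and 0.366% lower, and 6 of the 34 had an unadjusted p under 0.05. In control cells 7 of the 34 did, 5 of them higher and 2 lower. Of all 16394 genes tested in control cells, 1205 higher and 1359 lower ones did. Of 16388 in LP-1-cIAP2-eGFP cells, 1029 higher and 1123 lower ones did. The median change of the 34 genes was -0.06 in control cells and -0.07 in LP-1-cIAP2-eGFP cells, and that of all genes was -0.05 and -0.03.

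STARD4 read 8.92 and 8.90 on the untreated control arrays at 6 h and 10.24 and 10.22 with bortezomib. Both treated arrays lay above both untreated ones, by 1.32 ± 0.23 (log2 fold change ± SE, n = 2 against 2, limma adjusted p = 0.0237). In LP-1-cIAP2-eGFP cells it read 9.13 and 9.34 without and 10.16 and 10.50 with bortezomib, again without overlap, with a difference of 1.10 ± 0.23 (limma adjusted p = 0.068). Without the dim array, which is in neither condition but adds to the shared estimate of spread, this difference had an adjusted p of 0.0376. The call in control cells was lost under normexp background correction, without the filter on dim probes, with the slide as a block and when any of its own 4 arrays was left out.

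Other genes with treated arrays apart from untreated ones at 6 h were not called. HSD17B7, a ketoreductase of the steps after lanosterol, read 11.46 and 11.50 without and 12.65 and 12.68 with bortezomib in control cells, a difference of 1.18 ± 0.29 (limma adjusted p = 0.0853). Its 2 other probes gave 1.06, which was called (limma adjusted p = 0.0407), and 1.04, which was not. The gene has a near-identical pseudogene, whose transcripts these probes may also read. INSIG1, a short-lived retention protein and a classical SREBP target, read 14.03 and 13.79 without and 14.70 and 14.42 with bortezomib, a difference of 0.65 ± 0.17 (limma adjusted p = 0.0932). HMGCS1, the cytosolic HMG-CoA synthase, differed by 0.87 ± 0.27 in control cells and by 0.25 ± 0.27 in LP-1-cIAP2-eGFP cells. Treated arrays lay above untreated ones for all 3 genes in control cells, and in LP-1-cIAP2-eGFP cells for HSD17B7 and INSIG1. Values below the untreated ones were not called either. TM7SF2, a reductase of the step after lanosterol demethylation, read 12.53 and 12.63 without and 11.88 and 12.00 with bortezomib in control cells, a difference of -0.64 ± 0.22 (limma adjusted p = 0.234). MVK, mevalonate kinase, read 13.54 and 13.48 without and 12.84 and 12.76 with it, a difference of -0.71 ± 0.33 (limma adjusted p = 0.449), and PMVK, the next kinase, differed by -0.39 ± 0.14 (limma adjusted p = 0.269). In LP-1-cIAP2-eGFP cells the differences of TM7SF2, MVK and PMVK were -0.41, -0.34 and -0.39, and treated arrays lay below untreated ones for all 3 in both lines. Without the dim array, which is in none of these conditions, more of the 34 genes were called in control cells, in both directions. No share over all genes is given for that fit, so that these calls are not read as a result. The 7 fatty acid genes ranged from -0.55 to 0.19 in control cells and from -0.40 to 0.19 in LP-1-cIAP2-eGFP cells, and 0 of them were called by limma, with 0 and 1 at an unadjusted p under 0.05.

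**Figure D1:**
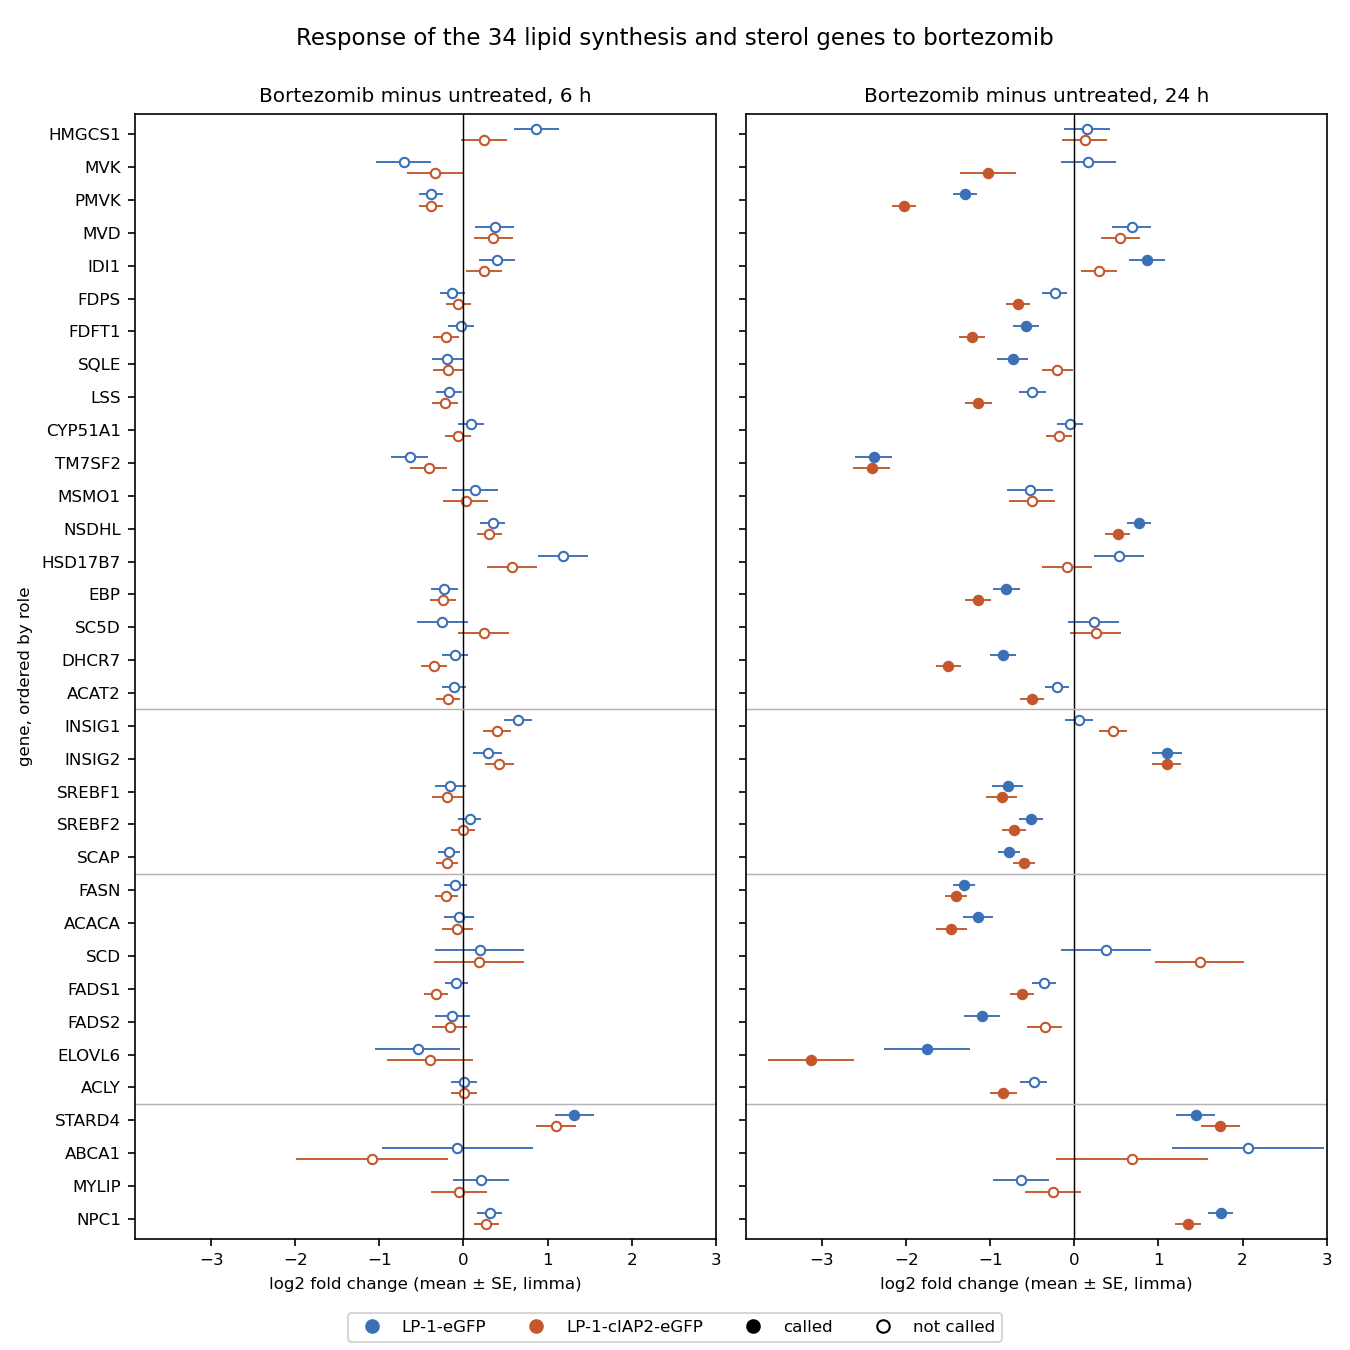
Log2 fold change with bortezomib for each of the 34 genes at 6 h (left) and 24 h (right), as limma's estimate ± SE, in LP-1-eGFP (blue) and LP-1-cIAP2-eGFP cells (orange), with 2 arrays against 2 in each comparison. Filled points were called; 1 point is filled at 6 h, STARD4 in control cells, and 18 and 21 are filled at 24 h, grey lines separating sterol enzymes, regulators, fatty acid enzymes and transport genes from top to bottom.

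At 24 h, 18 of the 34 genes were called in control cells, 5 higher and 13 lower, and 21 in LP-1-cIAP2-eGFP cells, 4 higher and 17 lower. Of all genes tested, 13.3% were called higher and 15.1% lower in control cells, and 14.4% and 22% in LP-1-cIAP2-eGFP cells. With array weights, which with 2 arrays per condition left the log2 fold changes of the called genes as they were and changed their SE, 10 of the 21 calls in LP-1-cIAP2-eGFP cells were lost and 11 remained. The genes lost were MVK, FDPS, LSS, NSDHL, ACAT2, SREBF1, SREBF2, SCAP, FADS1 and ACLY, with limma adjusted p from 0.0604 for LSS to 0.32 for NSDHL, while 0 of the 18 calls in control cells were lost. The median of the 34 genes was -0.42 in control cells, where that of all genes was -0.03, and -0.50 in LP-1-cIAP2-eGFP cells, where that of all genes was -0.16. The last value depended on the scaling. With each array scaled to its 75th percentile, the median of all probes in LP-1-cIAP2-eGFP cells was 0.21 and that of the 34 genes -0.69. Relative to the median of all, the 34 genes thus lay lower in both lines under either scaling. These are bulk measurements normalized between arrays, so that fewer cells of a type and less RNA per cell cannot be told apart.

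The lines share no array at 24 h, and their calls are set side by side here. The calls are not independent, however, because the fit over all conditions gave each probe a shared estimate of spread. A gene with a small estimate is called more easily in both lines. Of the genes called lower, 11 were shared, which is 84.6% of the 13 in control cells and 64.7% of the 17 in LP-1-cIAP2-eGFP cells. Over all 16394 genes, 2148 (13.1%) were lower in both, beside 2482 called lower in control cells and 3599 in LP-1-cIAP2-eGFP cells. Of the members called higher, 4 were shared, which is 80% of the 5 and 100% of the 4. Over all genes, 1667 (10.2%) were higher in both, beside 2182 called higher in control cells and 2360 in LP-1-cIAP2-eGFP cells. Most called genes were thus shared between the lines in general, and not in this list alone. No member was called in opposite directions, and 32 of the 34 had the same sign in both lines, as did 75.9% of all genes. Without the dim array, 19 genes were called in LP-1-cIAP2-eGFP cells. Treated and untreated arrays did not overlap for 28 of the 34 genes in control cells and for 30 in LP-1-cIAP2-eGFP cells. No share over all genes is given for the fit without the dim array or for the overlap. The counts of 19, 28 and 30 are thus not read as a result about the 34 genes.

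Among the 18 sterol enzymes, 2 were called higher and 6 lower in control cells, and 1 and 9 in LP-1-cIAP2-eGFP cells. TM7SF2, a reductase of sterols after lanosterol, fell furthest of these enzymes. It read 12.29 and 12.51 without and 9.92 and 10.10 with bortezomib in control cells, and 11.78 and 11.60 without and 8.91 and 9.65 with it in LP-1-cIAP2-eGFP cells. Every treated array lay well below every untreated array of its line, and the dim array held the lowest value. The log2 fold change was -2.39 ± 0.22 (limma adjusted p = 8.27e-05) in control cells and -2.41 ± 0.22 (limma adjusted p = 5.86e-05) in LP-1-cIAP2-eGFP cells, or -2.04 without the dim array.

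PMVK, the kinase that follows mevalonate kinase, also fell in both lines. It read 15.75 and 15.70 without and 14.39 and 14.47 with bortezomib in control cells, and 16.11 and 16.22 without and 13.99 and 14.29 with it in LP-1-cIAP2-eGFP cells. The treated arrays of both lines were close together although the untreated arrays of LP-1-cIAP2-eGFP cells were the higher ones. The log2 fold change was -1.30 ± 0.14 and -2.03 ± 0.14. The difference between these responses, -0.73 ± 0.20, had the lowest adjusted p of the 34 genes in that test (limma adjusted p = 0.4).

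DHCR7, which makes cholesterol in the last step of one branch, read 15.14 and 15.20 without and 14.27 and 14.38 with bortezomib in control cells, and 15.95 and 15.66 without and 14.17 and 14.44 with it in LP-1-cIAP2-eGFP cells. The groups were apart in both lines, with log2 fold changes of -0.85 ± 0.15 and -1.5 ± 0.15. EBP, a sterol isomerase, went from 16.07 and 16.10 to 15.36 and 15.19 in control cells and from 16.17 and 16.06 to 14.78 and 15.16 in LP-1-cIAP2-eGFP cells. FDFT1, squalene synthase and thus the first enzyme committed to sterols, went from 14.87 and 14.93 to 14.44 and 14.21 and from 15.14 and 15.00 to 13.93 and 13.77. These genes fell in both lines, EBP by 0.81 and 1.15 and FDFT1 by 0.57 and 1.21 on the log2 scale. Under normexp background correction, the calls of DHCR7 and EBP in control cells were lost.

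Several sterol enzymes passed the test in 1 line only. LSS, lanosterol synthase, went from 12.97 and 13.00 to 12.46 and 12.51 in control cells, a difference of -0.50 (limma adjusted p = 0.0519), and from 13.21 and 13.33 to 11.96 and 12.30 in LP-1-cIAP2-eGFP cells, where it fell by 1.14. FDPS, the farnesyl diphosphate synthase whose upstream sequence is given above, went from 16.75 and 16.88 to 16.64 and 16.52 in control cells, a difference of -0.23, and from 16.96 and 16.86 to 16.06 and 16.42 in LP-1-cIAP2-eGFP cells, where it fell by 0.67. ACAT2, a cytosolic thiolase at the head of the route, went from 13.65 and 13.81 to 13.51 and 13.52, a difference of -0.21, and from 14.14 and 14.13 to 13.77 and 13.49, where it fell by 0.50. For these 3 genes the treated arrays lay below the untreated ones in both lines, for LSS with its brighter probe. Its dimmer probe went the other way in control cells, reading 8.07 and 8.06 without and 8.30 and 8.24 with bortezomib. In LP-1-cIAP2-eGFP cells that probe differed by -0.31, or by -0.67 without the dim array. The call of ACAT2 was lost with the slide as a block (-0.51, limma adjusted p = 0.0526), with array weights, without the filter on dim probes, and when either untreated array was left out (-0.50 and -0.51, limma adjusted p = 0.1 and 0.0981).

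MVK, mevalonate kinase, read 12.93 and 13.36 without and 13.20 and 13.42 with bortezomib in control cells, which overlap, and 13.51 and 13.75 without and 12.00 and 13.20 with it in LP-1-cIAP2-eGFP cells. The lowest value was that of the dim array. The log2 fold change of MVK in LP-1-cIAP2-eGFP cells, -1.03 (limma adjusted p = 0.0415), became -0.43 without that array. The call was lost when any of 13 of the 16 arrays was left out. It was also lost with the slide as a block, with array weights, under normexp background correction and without the filter on dim probes. SQLE, squalene epoxidase, which is often taken as rate limiting after squalene, read 14.14 and 14.56 without and 13.56 and 13.68 with bortezomib in control cells, where it fell by 0.73. In LP-1-cIAP2-eGFP cells it read 15.04 and 15.16 without and 15.07 and 14.71 with it, which overlap, and the difference was -0.20, with a 95% interval from -0.62 to 0.21.

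Against the direction of most of the list, NSDHL and IDI1 rose. NSDHL, a dehydrogenase that helps to remove the methyl groups of lanosterol, read 14.52 and 14.85 without and 15.50 and 15.41 with bortezomib in control cells, and 14.83 and 15.09 without and 15.49 and 15.45 with it in LP-1-cIAP2-eGFP cells. Treated arrays were higher throughout, by 0.77 ± 0.15 and 0.51 ± 0.15. IDI1, the isomerase that makes the reactive isoprene unit, read 13.37 and 13.62 without and 14.58 and 14.14 with bortezomib in control cells and rose by 0.86 ± 0.21. In LP-1-cIAP2-eGFP cells it read 13.90 and 13.86 without and 13.95 and 14.39 with it, a difference of 0.29 with a 95% interval from -0.19 to 0.77. Both calls in control cells were lost with each array scaled to its 75th percentile, as was that of NSDHL in LP-1-cIAP2-eGFP cells.

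The other 6 sterol enzymes were called in neither line at 24 h by their brightest probe. HMGCS1, at the entry to the mevalonate route, differed by 0.15 in control cells (95% interval -0.45 to 0.76) and by 0.12 in LP-1-cIAP2-eGFP cells (95% interval -0.48 to 0.73). CYP51A1, the lanosterol demethylase, differed by -0.05 (95% interval -0.40 to 0.29) and by -0.18 (95% interval -0.53 to 0.17). MSMO1, a sterol oxidase next to NSDHL in the route, differed by -0.53 and -0.50, and MVD, mevalonate diphosphate decarboxylase, by 0.68 and 0.54. SC5D, a sterol desaturase, differed by 0.23 and 0.25, and HSD17B7 by 0.53 and -0.09. In LP-1-cIAP2-eGFP cells the 2 other probes of HSD17B7 differed by 0.21 and 0.19. In control cells 1 of them read 10.93 and 11.60 without and 11.93 and 11.97 with bortezomib. The other read 9.55 and 10.19 without and 11.43 and 10.60 with it. Over the alternatives, the values in control cells ranged from -0.99 to -0.07 for MSMO1, from -0.17 to 0.63 for SC5D and from 0.22 to 0.84 for HSD17B7. Without the dim array, uncalled values in LP-1-cIAP2-eGFP cells shifted, with MVD at 0.15 in place of 0.54, SC5D at 0.15 in place of 0.25, HMGCS1 at -0.10 in place of 0.12 and HSD17B7 at 0.39 in place of -0.09. Also without it, CYP51A1 stood at -0.28, SQLE at -0.39 and IDI1 at 0.51, and none of these genes was called.

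Of the 5 regulators, 3 fell and 1 rose in each line at 24 h. SREBF2, which encodes the SREBP that acts mainly on sterol genes and which carries the sterol element shown above, read 12.18 and 12.24 without and 11.61 and 11.79 with bortezomib in control cells, and 12.39 and 12.20 without and 11.50 and 11.65 with it in LP-1-cIAP2-eGFP cells. The groups were apart in both lines, with log2 fold changes of -0.52 ± 0.14 and -0.72 ± 0.14. SCAP, the escort protein, went from 12.28 and 12.35 to 11.43 and 11.66 in control cells and from 12.33 and 12.33 to 11.68 and 11.79 in LP-1-cIAP2-eGFP cells, and it fell by 0.78 and 0.60. The call of SREBF2 in control cells was lost in 6 of the 26 alternatives other than the 2-fold limit, among them the slide as a block. That of SCAP in control cells was lost under normexp background correction.

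SREBF1, which encodes the SREBPs of fatty acid and sterol genes, gave opposite answers with its 2 probes. The brighter probe read 15.56 and 15.16 without and 14.63 and 14.51 with bortezomib in control cells and 14.79 and 14.54 without and 13.74 and 13.86 with it in LP-1-cIAP2-eGFP cells, and fell by 0.79 and 0.87. The dimmer probe differed by 0.49 in control cells (limma adjusted p = 0.669) and rose by 1.86 in LP-1-cIAP2-eGFP cells (limma adjusted p = 0.0396), where it read 8.75 and 8.73 without and 11.85 and 9.35 with bortezomib. The value of 11.85 came from the dim array, without which the dimmer probe rose by 0.61 (limma adjusted p = 0.0124). The direction of this gene thus holds for its brighter probe alone.

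The INSIG genes did not share a call. INSIG2 read 9.48 and 9.79 without and 10.78 and 10.69 with bortezomib in control cells, and 9.62 and 9.64 without and 10.48 and 10.96 with it in LP-1-cIAP2-eGFP cells. It rose by 1.10 ± 0.18 in both lines, while its dimmer probe differed by 0.16 and 0.29 and was not called. That probe rose by 0.75 in LP-1-cIAP2-eGFP cells without the dim array (limma adjusted p = 0.00469). INSIG1 read 13.60 and 13.95 without and 13.88 and 13.79 with bortezomib in control cells, which overlap, and 14.37 and 14.50 without and 14.82 and 14.96 with it in LP-1-cIAP2-eGFP cells, which do not. Its differences were 0.06 (95% interval -0.32 to 0.43) and 0.46 (95% interval 0.09 to 0.83, limma adjusted p = 0.0669), so that it was called in neither line.

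**Figure D2:**
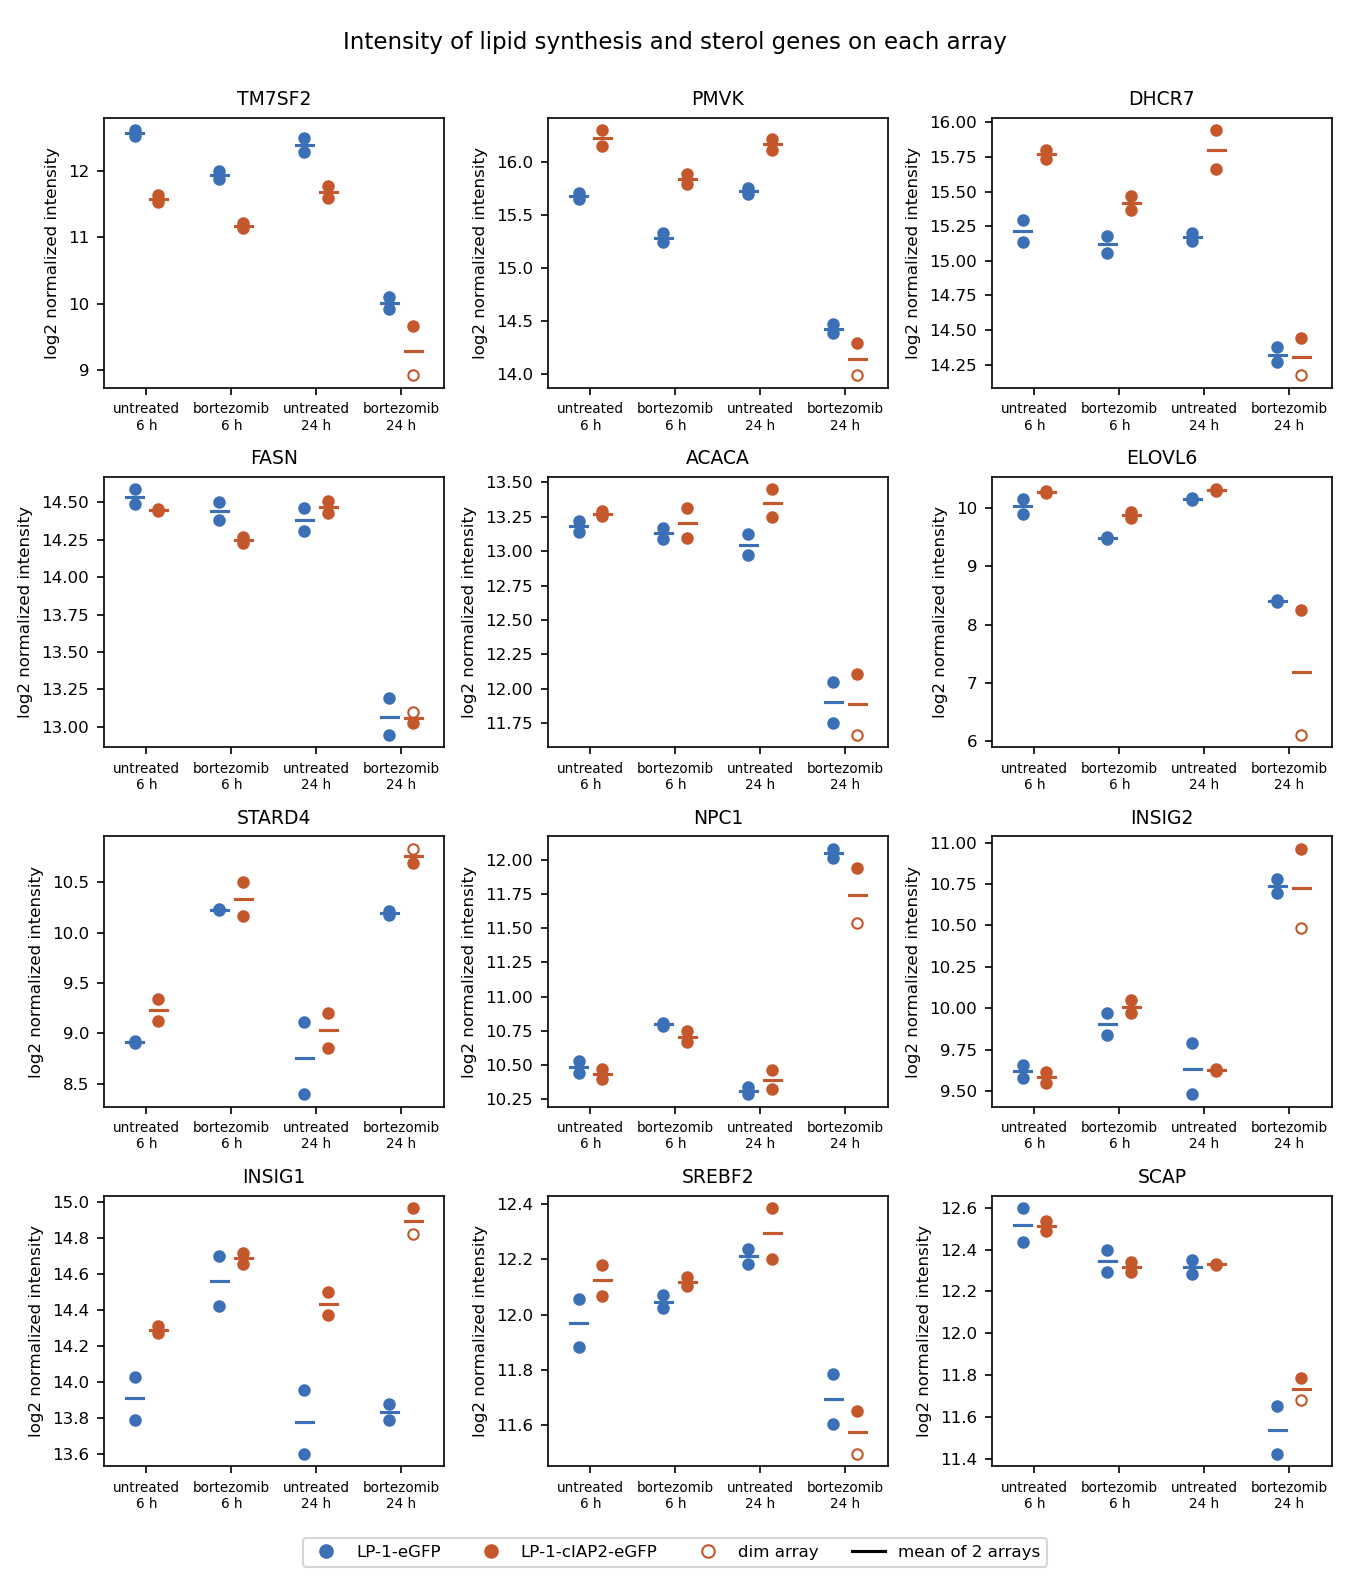
Log2 normalized intensity on each of the 16 arrays for 12 of the genes, in LP-1-eGFP (blue) and LP-1-cIAP2-eGFP cells (orange), by treatment and time; each point is 1 array, each bar the mean of 2 arrays, the open point is the dim array, and each panel has its own vertical axis. TM7SF2, PMVK, DHCR7, FASN, ACACA, ELOVL6, SREBF2 and SCAP are lowest with bortezomib at 24 h in both lines, NPC1 and INSIG2 are highest there, and STARD4 is higher with bortezomib at both times.

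Among the 7 fatty acid genes, 4 were called lower and 0 higher in control cells by limma, and 5 and 0 in LP-1-cIAP2-eGFP cells, with 6 of the 7 at an unadjusted p under 0.05 in each line. Of all 16394 genes, 3133 higher and 3432 lower ones had such a p in control cells, and 3127 and 4675 in LP-1-cIAP2-eGFP cells. FASN, the synthase that assembles palmitate, read 14.31 and 14.46 without and 12.95 and 13.19 with bortezomib in control cells, and 14.51 and 14.43 without and 13.10 and 13.02 with it in LP-1-cIAP2-eGFP cells. All 4 treated arrays lay more than 1 unit below the untreated ones. The log2 fold changes were -1.31 ± 0.13 (limma adjusted p = 0.000148) and -1.41 ± 0.13 (limma adjusted p = 7.55e-05). ACACA, the acetyl-CoA carboxylase that supplies malonyl-CoA to FASN, went from 13.13 and 12.97 to 11.75 and 12.05 in control cells and from 13.25 and 13.45 to 11.67 and 12.11 in LP-1-cIAP2-eGFP cells, and fell by 1.15 and 1.46. Its dimmer probe differed by -1.81 and -1.04, the latter -0.23 without the dim array, and was not called.

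ELOVL6, which lengthens palmitate to stearate, read 10.18 and 10.14 without and 8.39 and 8.43 with bortezomib in control cells, and 10.33 and 10.29 without and 6.10 and 8.26 with it in LP-1-cIAP2-eGFP cells. The value of 6.10 was that of the dim array, where the probe was not well above background. The log2 fold change was -1.75 ± 0.51 in control cells (limma adjusted p = 0.0351) and -3.13 ± 0.51 in LP-1-cIAP2-eGFP cells, or -2.05 without the dim array. In control cells the call was lost with the slide as a block and without the filter on dim probes. It was also lost when any 1 of 14 arrays other than the 2 of LP-1-cIAP2-eGFP cells with bortezomib at 24 h was left out. The value stayed between -1.80 and -1.59.

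ACLY, which makes cytosolic acetyl-CoA from citrate, went from 12.55 and 12.54 to 12.22 and 11.90 in control cells, a difference of -0.48 (limma adjusted p = 0.0548), and from 12.66 and 12.42 to 11.61 and 11.78 in LP-1-cIAP2-eGFP cells, where it fell by 0.84. The desaturases did not share a call in both lines. FADS2, which acts first on the polyunsaturated fatty acids, went from 10.28 and 10.34 to 8.98 and 9.44 in control cells and fell by 1.10, whereas in LP-1-cIAP2-eGFP cells it went from 10.72 and 10.92 to 10.67 and 10.26, a difference of -0.35 (95% interval -0.83 to 0.12), or -0.56 without the dim array. FADS1, which acts after it, went from 13.95 and 13.74 to 13.45 and 13.52, a difference of -0.36, and from 13.86 and 13.73 to 13.23 and 13.12, where it fell by 0.62. For each of these 3 genes the treated arrays lay below the untreated ones in both lines. SCD, the desaturase of stearate, read 11.34 and 11.05 without and 11.72 and 11.43 with bortezomib in control cells, and 11.17 and 10.72 without and 13.52 and 11.35 with it in LP-1-cIAP2-eGFP cells. Its difference of 1.49 there (limma adjusted p = 0.0625) rested on the dim array and was 0.41 without it.

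Of the 4 genes of sterol transport and the LXR response, 2 rose in each line, NPC1 and STARD4. NPC1, which exports cholesterol from lysosomes, read 10.28 and 10.33 without and 12.08 and 12.02 with bortezomib in control cells, and 10.46 and 10.32 without and 11.54 and 11.94 with it in LP-1-cIAP2-eGFP cells. It rose by 1.74 ± 0.15 (limma adjusted p = 5.9e-05) and by 1.35 ± 0.15 (limma adjusted p = 0.000174), without overlap. STARD4 read 8.39 and 9.12 without and 10.22 and 10.18 with bortezomib in control cells, and 8.85 and 9.21 without and 10.83 and 10.69 with it in LP-1-cIAP2-eGFP cells. It was the gene that rose at 6 h, and at 24 h it was higher by 1.44 ± 0.23 and 1.73 ± 0.23.

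The LXR targets were called in neither line. LXRs are nuclear receptors for oxidized sterols, and they raise ABCA1, a pump that exports cholesterol, and MYLIP, a ubiquitin ligase that lowers sterol uptake. ABCA1 was well above background on 9 of the 16 arrays. It read 7.71 and 5.94 without and 9.60 and 8.17 with bortezomib in control cells at 24 h, a difference of 2.06 with a 95% interval from 0.04 to 4.08 (limma adjusted p = 0.151), and its replicates lay more than 1 unit apart. MYLIP differed by -0.63 (95% interval -1.38 to 0.12) and by -0.25 (95% interval -1.0 to 0.49), the latter -0.09 without the dim array.

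A set of 5 genes, PMVK, TM7SF2, FASN, STARD4 and NPC1, were called at 24 h in both lines under each of the 26 alternatives that changed the values or the arrays. By contrast, 6 calls in each line were lost when 1 array of the comparison was left out. In control cells these were SREBF2, FDFT1, SQLE, IDI1, SREBF1 and ELOVL6. SREBF2 was lost without replicate 1 of either condition or untreated replicate 2 (-0.43 to -0.54), FDFT1 without either untreated array or treated replicate 2 (-0.46 to -0.60), SQLE without untreated replicate 2 or either treated array (-0.52 to -0.79), IDI1 without replicate 1 of either condition (0.64 and 0.74), SREBF1 without untreated replicate 1 or treated replicate 2 (-0.59 and -0.73), and ELOVL6 without any of the 4. In LP-1-cIAP2-eGFP cells they were MVK and ACAT2, described above, and 4 lost without untreated replicate 1, namely FADS1 (-0.56), FDPS (-0.62), SREBF1 (-0.74) and NSDHL (0.38), the last also without the dim array (0.49). Within a slide, all 18 genes called in control cells (1 treated against 2 untreated arrays, slide 2) and all 21 called in LP-1-cIAP2-eGFP cells (2 treated against 1 untreated, slide 1) kept their sign. These are arrays on which the genes were called, so that the sign was largely fixed beforehand and is no separate test of the slide.

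Whether the lines differed in their response was tested directly, as the difference between the changes. At 24 h, 0 of the 34 genes were called by limma, where 0.0793% of all genes responded more upward in LP-1-cIAP2-eGFP cells and 0.0244% more downward. An unadjusted p under 0.05 was found for 6 of the 34, and for 627 genes upward and 801 downward of all 16394. The largest of the 6 members were MVK at -1.19 (95% interval -2.23 to -0.16), which was -0.60 without the dim array, FADS2 at 0.74 (0.07 to 1.41) and PMVK at -0.73 (-1.18 to -0.28), so that differences of 2-fold were within the intervals. The median difference of the 34 genes was -0.23, and that of all genes -0.13. At 6 h, 0 of the 34 were called and 0 had an unadjusted p under 0.05, and 0% of all genes were called in either direction. The dim array weighed on this test. When it alone stood for LP-1-cIAP2-eGFP cells with bortezomib at 24 h, some of the 34 genes were called in the difference, in both directions. When it was left out, none was. No share over all genes is given for these fits, so that they are not read as a result.

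**Figure D3:**
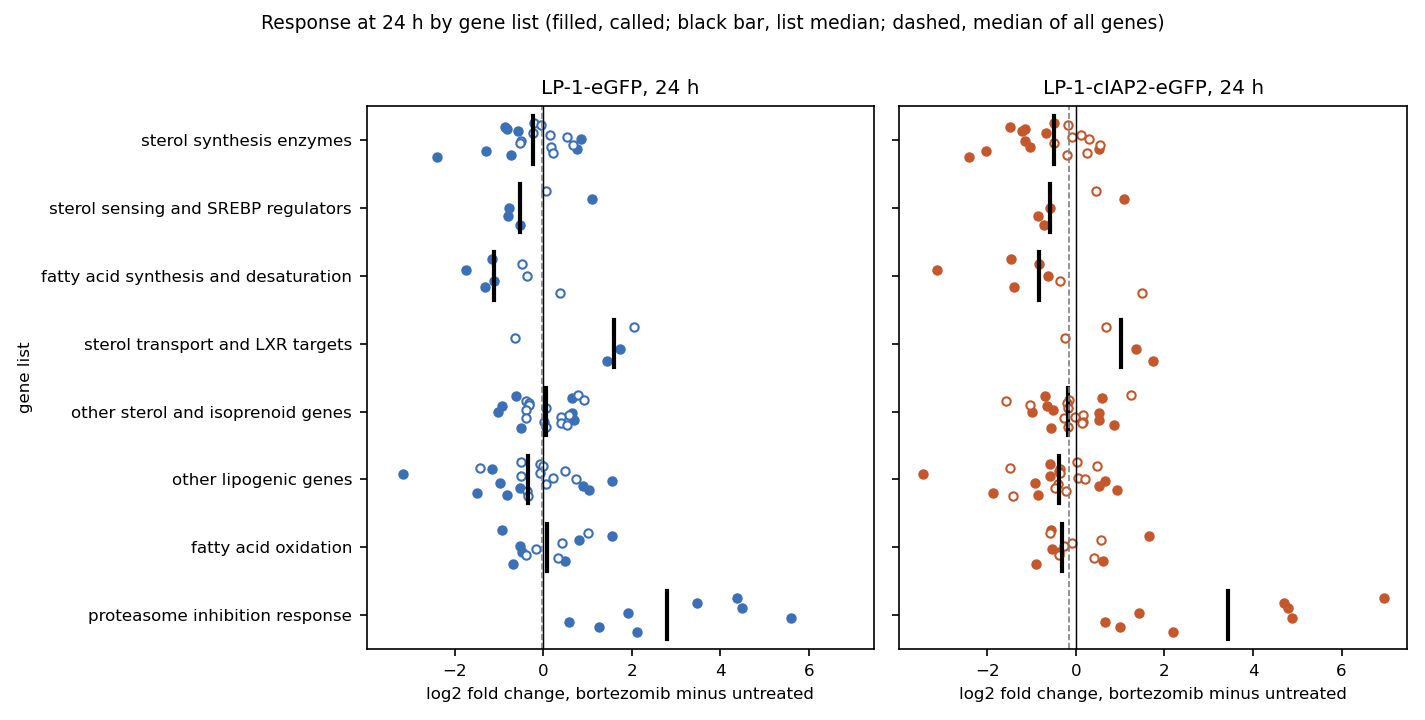
Log2 fold change with bortezomib at 24 h for each gene of 8 lists (rows) in LP-1-eGFP (left) and LP-1-cIAP2-eGFP cells (right); filled points were called, black bars are list medians and the dashed line is the median of all genes. The fatty acid genes have medians of -1.10 and -0.84, the genes of fatty acid oxidation of 0.09 and -0.32, and all 8 genes of the response to proteasome inhibition lie to the right of 0 in both lines.

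The other genes of these routes were listed beside the 34. Of 21 further genes of sterol and isoprenoid metabolism, 3 were called higher and 4 lower in control cells at 24 h, and 4 and 5 in LP-1-cIAP2-eGFP cells, with medians of 0.07 and -0.18. These are 14.3% higher and 19% lower in control cells, beside 13.3% and 15.1% of all genes, and 19% and 23.8% in LP-1-cIAP2-eGFP cells, beside 14.4% and 22%, so that the list lay near the share over all genes. Among the called genes, those with the largest changes in control cells were MBTPS2, the second protease that releases SREBPs, which fell by 1.03, LBR, the other reductase of the step that TM7SF2 serves, which fell by 0.93, and OSBP, an oxysterol binding protein, which rose by 0.71. In LP-1-cIAP2-eGFP cells the log2 fold changes of these 3 genes were -1.0, -0.66 and 0.52, and the other large ones among called genes were those of STARD3, a sterol carrier of late endosomes, at 0.86 and of ACAT1, the mitochondrial thiolase, at -0.71. STARD3 stood at 0.49 without the dim array, and its call was lost (limma adjusted p = 0.0501). At 6 h, TMEM97, a sterol-regulated membrane protein, rose by 0.94 in control cells (limma adjusted p = 0.0161) and was the 1 gene of this list that was called. Of 22 further lipogenic genes, 21 were tested, and 3 were called higher and 6 lower in each line at 24 h, which is 14.3% and 28.6% beside the same shares. DGAT2, which makes triglyceride, had log2 fold changes of -3.17 in control cells and -3.47 in LP-1-cIAP2-eGFP cells. SCD5, a desaturase related to SCD, had -1.5 and -1.86 with its brighter probe, the latter -1.06 without the dim array (limma adjusted p = 0.0167), while its dimmer probe was not called. FADS3, a relative of FADS1 and FADS2, rose by 1.56 and 0.66, and LPIN1, a phosphatidate phosphatase, rose by 1.04 and 0.93. At 6 h, ELOVL5, an elongase of polyunsaturated fatty acids, rose by 0.89 in control cells and was the 1 gene of this list that was called.

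Fatty acid oxidation, the opposite route, had 3 of 12 genes called higher and 4 lower in control cells at 24 h, and 2 and 4 in LP-1-cIAP2-eGFP cells. These are 25% and 33.3% in control cells, beside 13.3% and 15.1% of all genes, and 16.7% and 33.3% in LP-1-cIAP2-eGFP cells, beside 14.4% and 22%, and with 12 genes each share rests on 2 to 4 of them. ACADVL, the dehydrogenase of very long chains, rose by 1.56 and 1.64. ACADM, that of medium chains, had log2 fold changes of -0.92 and -0.57, and SLC25A20, the carnitine carrier of mitochondria, of -0.69 and -0.91. HADHB, a subunit of the trifunctional protein, rose by 0.50 and 0.62. The drug itself was seen in 8 genes known to respond to proteasome inhibition, of which 7 rose in control cells and 6 in LP-1-cIAP2-eGFP cells at 6 h, and 8 in each line at 24 h. HSPA1B, a heat shock protein whose near-identical neighbour may share its probe, rose by 4.12 at 6 h and by 5.61 at 24 h in control cells and by 3.42 and 4.87 in LP-1-cIAP2-eGFP cells. DNAJB1, a partner of such heat shock proteins, rose by 3.98 and 4.5 in control cells and by 3.18 and 4.79 in LP-1-cIAP2-eGFP cells. ATF3, a stress transcription factor, rose by 3.41 and 4.38 and by 2.91 and 6.96 with its brightest probe. At 6 h the 8 genes thus had medians of 2.78 and 2.45 when the 34 lipid genes had medians of -0.06 and -0.07.

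Time in culture alone was compared in untreated cells, 24 h against 6 h. In control cells 0 of the 34 genes were called by limma and 1 had an unadjusted p under 0.05, with 0% of all genes called in either direction. In LP-1-cIAP2-eGFP cells 0 were called and 0 had an unadjusted p under 0.05, with 0% of all genes called higher and 0.0122% lower. Over all genes, 282 higher and 232 lower ones had an unadjusted p under 0.05 in control cells, and 298 and 235 in LP-1-cIAP2-eGFP cells.

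The lines were compared over all treatments and times, with 8 arrays each. Since each line is taken as 1 transduced pool, an effect of cIAP2 and a difference between the pools cannot be told apart. Of the 34 genes, 10 passed the test with a higher value in the cIAP2 line and 3 with a lower one, where 9.03% of all genes were called higher and 12.7% lower. The median of the 34 was 0.05 and that of all genes -0.01. By role, 7 of the 18 sterol enzymes were called higher and 1 lower, 1 regulator was higher and 1 lower, 1 of 7 fatty acid genes was higher, and 1 transport or LXR gene was higher and 1 lower. All but ABCA1 differed by less than 2-fold.

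SQLE ranged from 13.56 to 14.57 on the 8 control arrays and from 14.71 to 15.18 on the 8 LP-1-cIAP2-eGFP arrays, so that the lines did not overlap. CYP51A1 ranged from 13.48 to 13.90 and from 13.97 to 14.40, also without overlap. The differences were 0.81 ± 0.09 (limma adjusted p = 0.000252) and 0.50 ± 0.08 (limma adjusted p = 0.00178). MSMO1 and FADS2 were higher as well, by 0.60 and 0.69, and their arrays were apart within each of the 4 settings of treatment and time although they overlapped over all of them. These 4 genes were higher without overlap in every setting, as were 6.48% of 15487 genes. TM7SF2 and SREBF1 were lower without overlap in every setting, by 0.80 and 0.74 on the log2 scale, as were 10.8% of genes. For SREBF1 this was measured with the brighter probe. Its dimmer probe differed by 0.17 with the dim array and by -0.14 without it, and was not called either way, and with both probes averaged over all arrays the difference was -0.29 and was not called.

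HMGCS1 (0.50), INSIG1 (0.56), DHCR7 (0.37), PMVK (0.32) and ACAT2 (0.28) were higher by the test, but not without overlap in every setting. The call of ACAT2 was lost when any of 11 of the 16 arrays was left out (values from 0.24 to 0.31), with each array scaled to its 75th percentile (limma adjusted p = 0.0835) and without the filter on dim probes. That of HMGCS1 was lost when any of 8 arrays was left out (0.42 to 0.58), with array weights (limma adjusted p = 0.114) and without the filter. The calls of PMVK (0.25) and DHCR7 (0.30) were lost under the 75th percentile scaling, and DHCR7 also under normexp, where it differed by 0.19. PMVK was higher by 0.55 and 0.56 at 6 h without and with bortezomib and by 0.44 in untreated cells at 24 h, and lower by 0.29 with bortezomib at 24 h, or by 0.14 without the dim array. INSIG1 differed by 0.38, 0.12, 0.66 and 1.06 in the same order, with the last at 24 h with bortezomib. MYLIP was higher by 0.73, without overlap in 3 of the settings, and its call was lost under normexp (0.50) and with array weights (limma adjusted p = 0.124). ABCA1 ranged from 4.70 to 9.60 on the control arrays and from 2.66 to 5.59 on the LP-1-cIAP2-eGFP arrays. It was well above background on all 8 of the former and on 1 of the latter, so that its measured difference of -2.52 ± 0.45 is not a fold change. With bortezomib at 24 h, and with the LP-1-cIAP2-eGFP values raised to the faintest signal flagged as above background on each array, ABCA1 was at least 6.88-fold lower (limma adjusted p = 0.0524 for this setting), a bound that became 11.9-fold without the dim array.

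**Figure D4:**
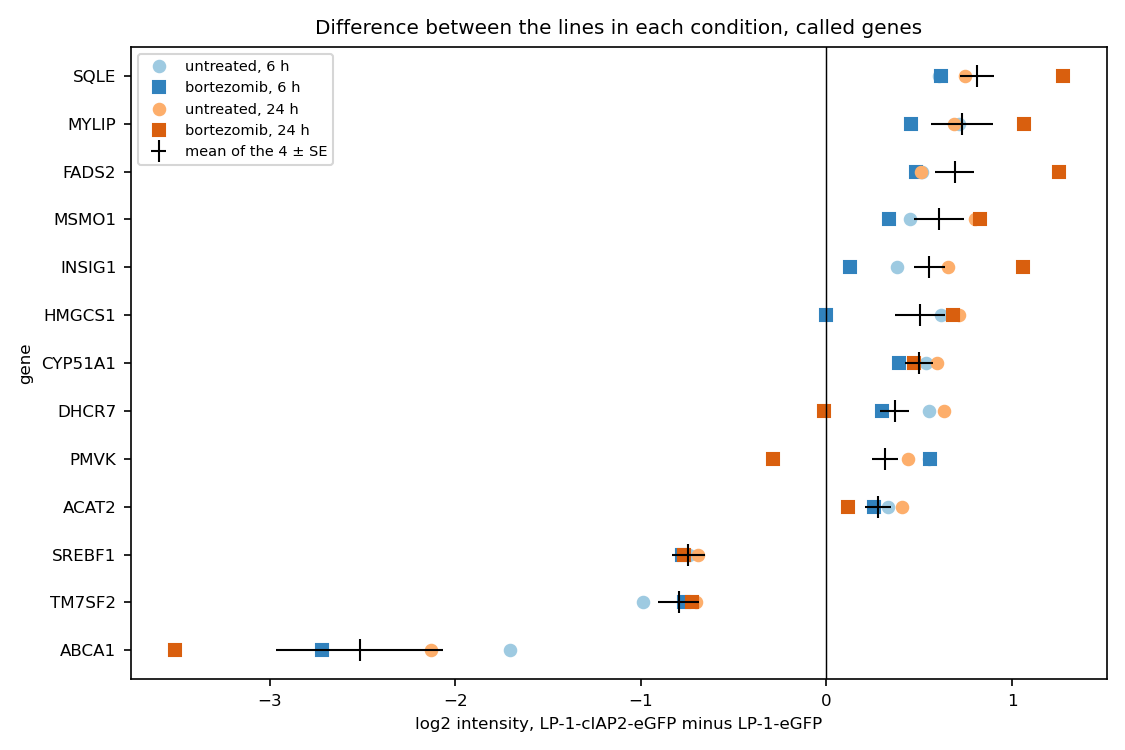
Log2 intensity of cells with cIAP2 minus that of control cells for the 13 called genes, with 1 coloured point for each setting of treatment and time (2 arrays against 2) and a black mark for their mean ± SE from limma. SQLE, MYLIP, FADS2, MSMO1, INSIG1, CYP51A1 and ACAT2 lie right of 0 in all 4 settings and SREBF1, TM7SF2 and ABCA1 left of 0, while PMVK lies left of 0 and DHCR7 near 0 with bortezomib at 24 h, and HMGCS1 near 0 with bortezomib at 6 h.

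Since the lines were unevenly spread over the slides, the comparison was repeated with the slide as a block and within slides. With the block, 8 of the 13 calls remained, namely those of PMVK, SQLE, CYP51A1, INSIG1 and FADS2 higher and TM7SF2, SREBF1 and ABCA1 lower, while HMGCS1 (limma adjusted p = 0.204), MSMO1 (0.0802), DHCR7 (0.0634), ACAT2 (0.123) and MYLIP (0.0841) were lost. Within slide 1, SQLE was 0.76 higher at 6 h without the drug and 1.34 higher at 24 h with it. Within slide 2, it was 0.45 higher at 6 h and 0.80 higher at 24 h, both without the drug. The same 4 values, in this order, were -0.99, -0.64, -0.99 and -0.80 for TM7SF2, the second of them -0.27 without the dim array, and 0.68, 0.35, 0.40 and 0.44 for CYP51A1. For ABCA1 no value within a slide is given, since 7 of the 8 LP-1-cIAP2-eGFP arrays were not well above background. Each such value rests on 2 or 3 arrays and has no test. Among the other lists, beside the 9.03% and 12.7% of all genes called higher and lower, 4 of 21 further sterol and isoprenoid genes were called higher and 0 lower by limma, led by ERLIN2 at 0.38, a membrane protein that takes part in the degradation of sterol-regulated proteins, TMEM97 at 0.32 and NUS1, of dolichol synthesis, at 0.28. Of the further lipogenic genes, 1 was higher and 6 lower, led by ACSL5, an acyl-CoA synthetase, at -1.54, DGAT2 at -0.76 and FADS3 at -0.75. Of the 12 genes of fatty acid oxidation, 2 were higher and 3 lower, the latter CPT1A, which brings fatty acids into mitochondria, at -2.19 (limma adjusted p = 3.52e-06), HADHA, the other subunit of the trifunctional protein, at -0.93 and HADHB at -0.54. Of the 8 genes of the response to proteasome inhibition, PSMA3, a proteasome subunit, was the 1 that was called, at 0.33.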

How the data were processed

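Total RNA of the 16 samples was hybridized to Agilent SurePrint G3 Human 8x60K v2 arrays in a single colour. Per the file headers, the authors extracted the intensity of each spot with Agilent Feature Extraction 10.7.3.1, which subtracts background and removes spatial trends, and these values are not normalized between arrays. The other columns used are the software's flags of signal well above background, saturation and outliers. The authors also deposited a table of quantile normalized log2 values, centred on the median of each probe, which served as an alternative.

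Spots marked as outliers were left out, the remaining spots of a probe were averaged as log2, and the arrays were quantile normalized. Of 50599 gene probes, 33725 passed the filter, meaning a signal flagged as well above background on both replicates in 1 condition or more, and were tested, and 28174 (55.7%) were named through RefSeq accessions of assembly GRCh38.p14. The brightest tested probe stands for a gene. limma 3.58.1 in R 4.3.3 gave each of the 8 conditions a mean and moderated the variance (lmFit, contrasts.fit, eBayes). P-values were adjusted over all tested probes with the Benjamini-Hochberg method, and a gene was called at an adjusted p under 0.05 with no limit on fold. All p-values in the text are two-sided. The fit was tested on simulated data.

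All 34 genes are accounted for, with array values for those called with bortezomib at either time and for the regulators, and from the other lists up to 3 genes of largest change among those called in a comparison, except for a few genes that are not reported here. The members and lists were chosen with earlier results of these data known. Promoter windows came from RefSeq. The alternatives were 75th percentile scaling, normexp (offset 50), the authors' table, no filter, a filter on every array, a block for the replicate number, a block for the slide, array weights, averaged probes, a further 2-fold limit, a mean-variance trend and each array left out. With 1 array left out, its partner was taken to have the same spread as other conditions.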

Additional observations from a re-analysis of the deposited data

How the results depend on the processing

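With 34 genes, the counts of genes called at 24 h were moved by over 1.5 times in 3 cases, namely to 9 in control cells and 13 in LP-1-cIAP2-eGFP cells when more than 2-fold was also required, and to 11 in LP-1-cIAP2-eGFP cells with array weights. All 11 of these were among the 21 called without weights. With single arrays left out, the counts at 24 h were 14 to 21 in control cells and 15 to 23 in LP-1-cIAP2-eGFP cells. At 6 h, small counts moved under several alternatives. In control cells 1 gene became 0 under normexp, without a filter and with the slide as a block, 3 with a filter on all arrays or a mean-variance trend, 12 with array weights (8 higher and 4 lower), and 0 to 6 with single arrays left out. In LP-1-cIAP2-eGFP cells 0 became 1 with the filter on all arrays, array weights or the trend, and 0 to 1 with arrays left out. No share over all genes is given for any alternative fit in this section. Their counts describe the processing and are not read as a result about the 34 genes. The difference between the responses at 24 h gave 0 to 10, where the 10 rested on the dim array. The line comparison gave 13 genes, 8 with the slide as a block, 1 when more than 2-fold was required, and 11 to 15 with arrays left out. Replicate numbers share no stated animal, culture or day, and the replicate differences of the conditions correlated between -0.11 and 0.24 over 28 pairs of conditions, with 7 above 0.1, so that the numbers were not taken as pairs. With the replicate number as a block, 3 genes were called at 6 h in control cells and 1 in LP-1-cIAP2-eGFP cells, 20 and 22 at 24 h, and 13 between the lines. Of 580 values of called genes under alternatives other than a left-out array, 499 kept direction and call, 80 lost the call and 1 turned, which was SREBF1 at 24 h in LP-1-cIAP2-eGFP cells with its probes averaged (0.50), where the dimmer probe rose. With arrays left out, 778 of 848 kept both, 70 lost the call and 0 turned. The values of ABCA1 are limited by signal over background, as its probe passed the scanner's background flag on 9 of the 16 arrays. Beyond what an alternative changes by its own construction, the cause was not tested.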
